A study of Mus musculus with 45 samples.

Results

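The BCL2 family genes described here were the 10 genes Bcl2, Bcl2l1, Mcl1, Bcl2a1b, Bcl2l11, Bbc3, Pmaip1, Bid, Bax and Bak1, taken by symbol from the 55450 genes of the expression table, and each passed the low-count filter in every comparison. RNA was sequenced from cells sorted out of the draining popliteal lymph nodes of S1PR4-deficient mice (S1PR4-/-, germline deletion, strain B6.129P2-S1pr4tm1Dgen/J backcrossed to C57BL/6) and WT littermates. Male and female mice of 8 to 12 weeks were immunized in the hind footpad with 20 µL of an emulsion of incomplete Freund's adjuvant that held 50 µg OVA and 5 µg LPS, so that every group, WT included, came from immunized animals. Germinal center (GC) B cells (B220+GL7+Fas+) and non-GC B cells (B220+GL7-Fas-) were sorted on day 9, and follicular helper T cells (TFH, CD4+PD1+CXCR5+) and non-TFH CD4+ T cells (PD1-CXCR5-) on day 6. The 45 libraries formed 8 groups of 6, except for non-GC B cells, which had 5 WT and 4 S1PR4-/- libraries. Since B and T cells were taken on different days, lineage and day cannot be told apart in any comparison of B with T cells.

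Proteins of this family decide whether the outer membrane of the mitochondrion is opened, the step that releases cytochrome c and starts the caspase cascade. BAX and BAK form the pores, the antiapoptotic proteins (BCL2, BCL-XL, MCL1 and A1) hold them in check, and the BH3-only proteins (BIM, PUMA, NOXA and BID) counter the antiapoptotic proteins or engage the pore formers. Germinal center B cells are known for little BCL2 protein and for ready apoptosis, and which antiapoptotic protein a lymphocyte depends on changes as it is activated.

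Levels are given as CPM, the expected counts of a gene scaled to a common library size with TMM factors. Library totals ran from 26299429 to 45548215 expected counts. S1pr4 itself was at 0 to 40 expected counts in the 22 S1PR4-/- libraries and at 505 to 6305 in the 23 WT libraries. The summed CPM of 12 B cell markers was 8162 to 18349 in the B cell libraries and 61.6 to 508 in the T cell libraries, and that of 12 T cell markers was 8674 to 11890 in T cells and 214 to 364 in B cells, none of the 24 genes being at 0 counts throughout a group. The 8 plasma cell markers summed to 2417 to 22502 CPM in GC B libraries against 456 to 898 CPM in non-GC B libraries. WT GC B libraries were at 5475 to 11842 CPM. S1PR4-/- GC B replicates 1, 2 and 3 were at 7510, 10287 and 22502 CPM. S1PR4-/- replicates 4, 5 and 6 were at 2537, 2951 and 2417 CPM, below every WT GC B library. The bulk values cannot separate fewer cells of a type from less RNA per cell. The rule for a call was edgeR's quasi-likelihood test with an FDR below 0.05 together with a fold above 1.5, and differences are on the log2 scale with their standard error (SE).

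In WT GC B cells, 7 of the 10 genes differed from non-GC B cells, 6 higher and 1 lower. Bcl2 fell, while Bcl2l1, Bcl2a1b, Bcl2l11, Bbc3, Bid and Bak1 rose. Of all 13324 genes tested, 47.8% were called, 24.8% higher and 23.1% lower, so the count of higher members stands beside a background of about 1 gene in 4. The median log2 fold change was 1.02 over the members and 0.00 over all genes tested. From the separate libraries of S1PR4-/- mice, the same 7 genes were called in the same directions, against a background of 48.2% called, 25.3% higher and 22.9% lower. The plasma cell marker sums given above were higher in all 12 GC B libraries than in all 9 non-GC B libraries, and their part in these differences was not tested.

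In WT TFH cells, 6 of the 10 genes differed from non-TFH cells, 3 higher and 3 lower. Bcl2a1b, Pmaip1 and Bak1 rose, and Bcl2, Bcl2l11 and Bbc3 fell. The background was 43.2% called, 22.8% higher and 20.4% lower. In S1PR4-/- mice 6 genes were called as well, with Mcl1 added on the lower side and Bak1 not called, against a background of 43.4% called, 22.3% higher and 21.1% lower. The B cell marker sums were at 162 to 508 CPM in TFH and 61.6 to 109 CPM in non-TFH libraries, and their part in these differences was not tested. Among the called genes, Bcl2 and Bcl2a1b thus moved the same way in both germinal center populations, as did Bak1 in WT mice. In contrast, Bcl2l11 and Bbc3 moved in opposite directions.

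**Figure D1:**
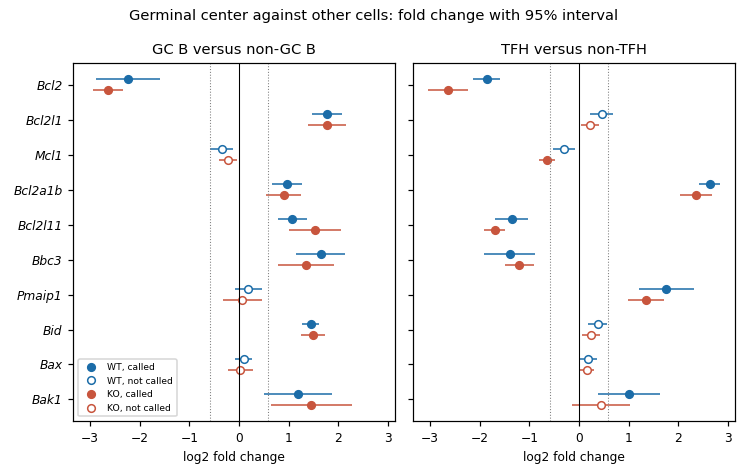
Log2 fold change (x axis) of the 10 genes in GC B over non-GC B cells (left) and TFH over non-TFH cells (right), WT in blue and S1PR4-/- in red, with 95% intervals. Filled circles were called, open circles were not, and dotted lines mark a fold of 1.5; Bcl2 lies to the left in both panels, at -2.24 and -1.86 in WT, and Bcl2l11 lies to the right in B cells (1.07) and to the left in T cells (-1.36).

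Bcl2 encodes the founding antiapoptotic protein of the family and lies on the minus strand of chromosome 1 from 106538178 to 106714274 (mm10, GENCODE M21). Its promoter is printed because Bcl2 was the single member called lower in both germinal center populations of both genotypes. The RefSeq sequence (GRCm38.p6, chr1:106714291-106714540, minus strand, 250 bases read 5′ to 3′ toward the start site) held none of the 4 motifs searched.

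Bcl2 promoter: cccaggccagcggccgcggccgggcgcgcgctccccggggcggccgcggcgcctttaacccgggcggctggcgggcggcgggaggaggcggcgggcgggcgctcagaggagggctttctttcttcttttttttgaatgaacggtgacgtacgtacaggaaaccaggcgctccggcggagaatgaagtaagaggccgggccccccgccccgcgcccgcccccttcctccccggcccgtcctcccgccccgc

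The motifs, searched on both strands of the windows from 250 bases before to 50 after each start, were GGG, any 2 bases and TTTCC (NF-kB), TGTTTAC (FOXO), CACGTG (E-box) and TTCNNNGAA (shared core of STAT and BCL6 sites). They occurred in 1.63%, 3.65%, 7.15% and 8.3% of the 32851 mouse promoters.

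In WT non-GC B cells the 5 libraries held Bcl2 at 149.7, 171, 113, 147 and 162 CPM. WT GC B libraries ran from 12.2 to 58.9 CPM (median 27.5). Every GC B library was below every non-GC B library, and the log2 fold change was -2.24 (SE 0.30, adjusted p = 2.55e-05, edgeR). In S1PR4-/- mice the 4 non-GC B libraries were at 107, 141, 114 and 136 CPM and the GC B libraries at 15.6 to 23.1 (median 18.8), a log2 fold change of -2.64 (SE 0.14, adjusted p = 4.76e-08, edgeR). WT GC B cells were the more spread of the GC B groups, with an SD of 16.0 CPM against 3.32 in S1PR4-/-, and the highest library, replicate 6 at 58.9 CPM, stood alone.

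In T cells Bcl2 ran from 165 to 243 CPM (median 188) in WT non-TFH cells and from 41.6 to 66.4 (median 50.5) in WT TFH cells. The groups did not overlap, and the log2 fold change was -1.86 (SE 0.13, adjusted p = 8.15e-09, edgeR). S1PR4-/- non-TFH libraries were at 135 to 334 CPM (median 226) and TFH libraries at 34.0 to 44.8 (median 36.5), with a log2 fold change of -2.65 (SE 0.19, adjusted p = 2.30e-08, edgeR). Among WT populations the order of Bcl2 was non-TFH, non-GC B, TFH and GC B, a range of 6.43 times between the means. The first pair overlapped, as did the last pair, and the step between non-GC B and TFH cells did not.

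**Figure D2:**
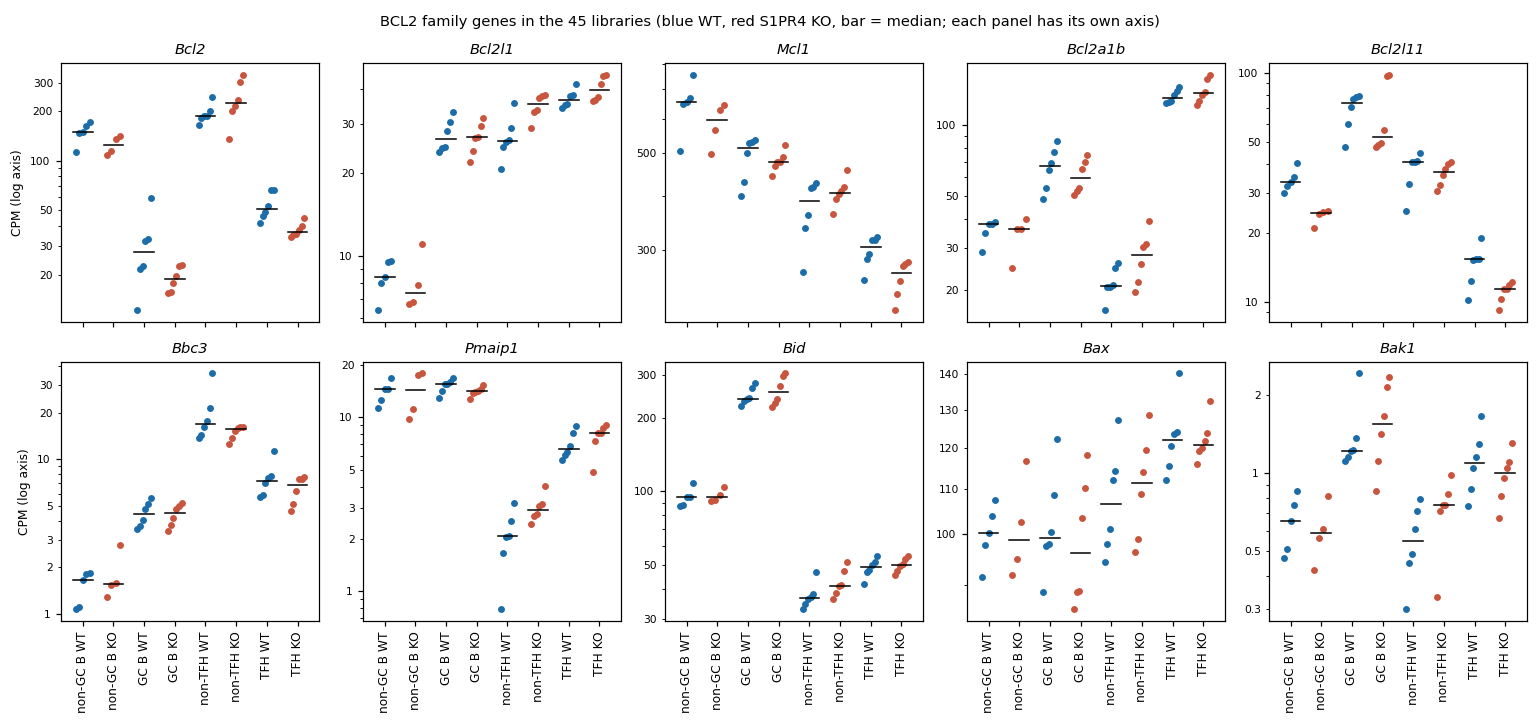
CPM of the 10 genes (log axis, a separate one in each panel) in each of the 45 libraries by group, blue for WT and red for S1PR4-/-, with bars at the medians. The panels of Bcl2 and Bcl2l11 show low TFH values for both genes but GC B values that are low for Bcl2 and high for Bcl2l11, and Bax spans little more than 85.5 to 140.3 CPM.

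Bcl2l1 encodes BCL-XL (chromosome 2, minus strand, 152780668 to 152831728). The 5 WT non-GC B libraries were at 6.38, 9.60, 9.51, 8.44 and 8.00 CPM, and WT GC B libraries ran from 23.8 to 32.9 (median 26.5). The gap between the groups was wider than either group's range, with a log2 fold change of 1.78 (SE 0.14, adjusted p = 2.63e-07, edgeR). In S1PR4-/- B cells it was 1.77 (SE 0.17, adjusted p = 4.34e-06, edgeR). WT TFH cells held 34.2 to 41.6 CPM (median 36.6) and non-TFH cells 20.6 to 35.7 (median 26.0). These groups overlapped, and the log2 fold change of 0.46 (SE 0.11, adjusted p = 0.0017, edgeR) stayed under the fold threshold. The S1PR4-/- libraries were at 21.8 to 31.4 CPM in GC B, 6.74 to 11.1 in non-GC B, 36.1 to 45.02 in TFH and 28.9 to 38.0 in non-TFH cells. Non-GC B cells were below all other WT populations without overlap, and WT TFH cells were above GC B cells without overlap.

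Mcl1 encodes the short-lived antiapoptotic protein MCL1 (chromosome 3, plus strand, 95658788 to 95663176), on which B and T cells depend throughout life. It was the member with the highest CPM in every group. WT non-GC B libraries were at 670.2, 756, 649, 506 and 656 CPM, GC B libraries at 398 to 537 (median 515), non-TFH libraries at 267 to 427 (median 388) and TFH libraries at 256 to 321 (median 305). All neighbours in this order overlapped. The log2 fold change was -0.34 in GC B cells (SE 0.11, adjusted p = 0.0121, edgeR) and -0.31 in TFH cells (SE 0.10, adjusted p = 0.0149, edgeR), both under the fold threshold. In S1PR4-/- TFH cells it was -0.65 (SE 0.07, adjusted p = 2.49e-06, edgeR), just past that threshold and so called, with TFH libraries at 219 to 282 CPM and non-TFH libraries at 363 to 457.

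Bcl2a1b is 1 of several mouse copies of the gene for A1, an antiapoptotic protein whose transcription is known to follow NF-kB activity. It lies on chromosome 9 (plus strand, 89199209 to 89207827), with Bcl2a1d and Bcl2a1a nearby. Its coding sequence of 519 bases differed from that of Bcl2a1d at 6 positions and from that of Bcl2a1a at 11 (identities of 98.84% and 97.88%). The first 120 coding bases (mm10, GENCODE M21) are printed to show how little separates the copies, with capitals at the positions where the 3 copies are not all alike.

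Bcl2a1b: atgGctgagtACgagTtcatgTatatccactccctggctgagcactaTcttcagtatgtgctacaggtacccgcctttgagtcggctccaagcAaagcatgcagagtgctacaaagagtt
Bcl2a1d: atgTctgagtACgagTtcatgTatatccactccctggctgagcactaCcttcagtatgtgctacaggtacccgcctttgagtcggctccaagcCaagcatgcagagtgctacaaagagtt
Bcl2a1a: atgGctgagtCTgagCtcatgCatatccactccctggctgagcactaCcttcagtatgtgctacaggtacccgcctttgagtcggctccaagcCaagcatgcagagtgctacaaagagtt

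Of the 31-base stretches of the Bcl2a1b transcript, 73.3% also occur in another copy, so the division of reads among the copies is an estimate made by RSEM. Bcl2a1b took 59.5% of the summed counts of the 4 copies in WT TFH cells and 74.6% in WT non-TFH cells (means of 6 libraries). Its exons also overlap Gm29094 on the same strand, at up to 87.4 expected counts. The sum of the 4 copies is therefore given beside the single gene.

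WT TFH libraries held Bcl2a1b at 125 to 145 CPM (median 131) and WT non-TFH libraries at 16.3 to 25.9 (median 20.7). The groups were far apart, and the log2 fold change of 2.63 (SE 0.10, adjusted p = 3.96e-11, edgeR) was the largest of any member in this comparison. Summed over the 4 copies it was 2.95 (adjusted p = 8.83e-11, edgeR). For S1PR4-/- mice the ranges were 122 to 164 CPM in TFH and 19.4 to 39.0 in non-TFH cells, with a log2 fold change of 2.36 (SE 0.15, adjusted p = 7.70e-09, edgeR).

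Among B cells, the 5 WT non-GC B libraries were at 38.0, 38.9, 37.9, 34.7 and 28.9 CPM and the GC B libraries at 48.4 to 85.7 (median 67.0). No library crossed over, and the log2 fold change was 0.96 (SE 0.14, adjusted p = 5.08e-05, edgeR), or 1.16 for the sum of the copies (adjusted p = 7.31e-06, edgeR). In S1PR4-/- B cells it was 0.90 (SE 0.16, adjusted p = 0.00044, edgeR). Bcl2a1b was ordered TFH, GC B, non-GC B and non-TFH in WT mice, with no overlap between neighbours.

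Per kilobase of exon, the scale on which genes can be set side by side, Mcl1 was first of the 10 genes in WT non-GC B (189 CPM per kb), GC B (143) and non-TFH cells (109), and Bcl2a1b was first in WT TFH cells (163 CPM per kb against 87.3 for Mcl1). Bcl2 was at 21.2 CPM per kb in non-TFH and 16.2 in non-GC B cells, but at 5.84 in TFH and 3.30 in GC B cells. In both germinal center populations Bcl2l1 was above Bcl2 on this scale (5.98 CPM per kb in GC B and 8.07 in TFH cells), and in the other populations it was below (1.83 and 5.88).

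Bcl2l11 encodes BIM, a BH3-only protein that binds all the antiapoptotic members and is needed for the death of autoreactive and spent lymphocytes (chromosome 2, plus strand, 128126038 to 128162547). Its promoter, the first of 2 RefSeq entries, is shown because FOXO factors are known regulators of the gene and the window held 1 match to the FOXO motif, on the reverse strand and in capitals, starting 227 bases before the start site. The sequence is from RefSeq (GRCm38.p6, chr2:128125788-128126037, plus strand, 250 bases).

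Bcl2l11 promoter: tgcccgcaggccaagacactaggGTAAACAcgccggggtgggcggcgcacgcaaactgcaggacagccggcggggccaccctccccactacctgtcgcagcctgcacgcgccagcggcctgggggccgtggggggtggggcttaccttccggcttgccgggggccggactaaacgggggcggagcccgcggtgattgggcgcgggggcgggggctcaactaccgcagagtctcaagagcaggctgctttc

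A match of these letters occurs in 3.65% of promoters and describes the sequence alone. The second Bcl2l11 entry held none of the motifs. Of the other genes scanned, an entry of Bbc3 also held a FOXO match. NF-kB matches lay in entries of Mcl1, Bcl2l1 and Bbc3, and E-box matches in entries of Bbc3 and Bax. No motif was found for Bid, Bak1 or any Bcl2a1 copy. Bcl2l11 was at 33.4, 29.8, 40.4, 32.1 and 35.2 CPM in the WT non-GC B libraries and at 47.5 to 79.4 (median 73.6) in WT GC B libraries. The lowest GC B library was above the highest non-GC B library, and the log2 fold change was 1.07 (SE 0.14, adjusted p = 1.68e-05, edgeR). In S1PR4-/- B cells the 4 non-GC B libraries were at 24.9, 24.2, 24.8 and 21.04 CPM and the GC B libraries at 47.2 to 98.0 (median 52.7), with a log2 fold change of 1.53 (SE 0.24, adjusted p = 0.000176, edgeR). The S1PR4-/- GC B libraries gave 4 values from 47.2 to 56.2 and a pair at 96.4 and 98.0 CPM (replicates 2 and 3), and these 2 libraries also had the highest plasma cell marker sums of their group, 10287 and 22502 CPM. The part of plasma cells in this spread was not tested.

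In T cells the direction was the opposite. WT non-TFH libraries held Bcl2l11 at 24.9 to 44.9 CPM (median 40.7) and WT TFH libraries at 10.2 to 18.9 (median 15.4). The groups did not overlap, and the log2 fold change was -1.36 (SE 0.16, adjusted p = 2.54e-06, edgeR). In S1PR4-/- mice it was -1.70 (SE 0.10, adjusted p = 3.30e-09, edgeR), with TFH libraries at 9.20 to 12.2 CPM and non-TFH libraries at 30.6 to 40.8. In WT mice GC B cells stood highest and TFH cells lowest, each apart from the non-TFH and non-GC B cells, which overlapped.

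The ratio of Bcl2 to Bcl2l11 CPM within a library puts these values together, as a description with no test. It was 0.203 to 0.753 in WT GC B cells and 0.200 to 0.488 in S1PR4-/- GC B cells, so Bcl2l11 exceeded Bcl2 in all 12 libraries. In the other 6 groups the ratio was 2.73 or more in every library, and its median was 4.10 in WT TFH, 4.58 in WT non-GC B and 4.53 in WT non-TFH cells. In TFH cells both genes were low and their ratio overlapped that of non-TFH cells, at 2.73 to 4.48 against 3.98 to 7.55 in WT.

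**Figure D3:**
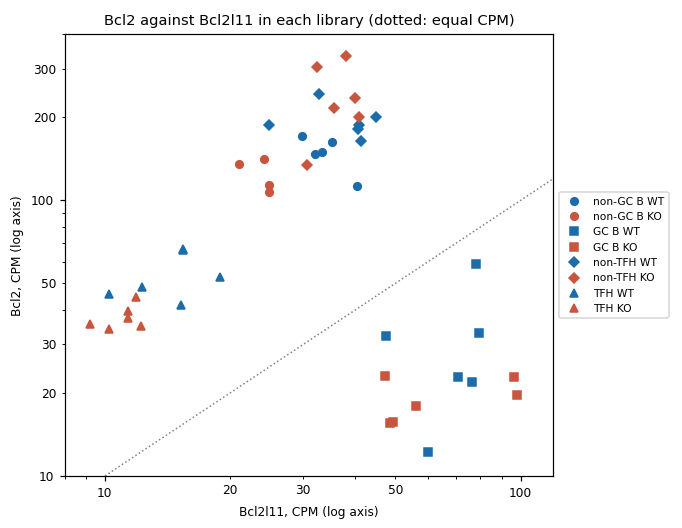
Bcl2 CPM (y axis, log) against Bcl2l11 CPM (x axis, log) in each of the 45 libraries, with shapes for the populations, blue for WT and red for S1PR4-/-, and a dotted line at equal CPM. The 12 GC B libraries lie below the line, at ratios of 0.200 to 0.753, and all others lie above it.

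Bbc3 encodes PUMA, the BH3-only protein best known as a p53 target (chromosome 7, plus strand, 16308393 to 16318205). It was at 1.65, 1.08, 1.10, 1.81 and 1.85 CPM in WT non-GC B libraries and at 3.57 to 5.63 (median 4.41) in WT GC B libraries. The groups were separate, and the log2 fold change was 1.64 (SE 0.23, adjusted p = 3.70e-05, edgeR), with 1.35 in S1PR4-/- mice (SE 0.26, adjusted p = 0.000803, edgeR). In WT T cells it was at 13.7 to 35.7 CPM (median 16.9) in non-TFH and 5.73 to 11.3 (median 7.27) in TFH cells. TFH cells were lower without overlap, by a log2 fold change of -1.40 (SE 0.24, adjusted p = 0.000103, edgeR), and by -1.20 in S1PR4-/- mice (SE 0.14, adjusted p = 2.68e-06, edgeR). S1PR4-/- libraries held 3.46 to 5.20 CPM in GC B, 1.29 to 2.77 in non-GC B, 4.60 to 7.70 in TFH and 12.5 to 16.2 in non-TFH cells. The means of the 4 WT populations, none of which overlapped its neighbours, spanned 13.2 times from non-TFH to non-GC B cells.

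Pmaip1 encodes NOXA, a BH3-only protein that binds chiefly MCL1 and A1. In WT B cells it was at 12.6, 16.9, 14.5, 11.3 and 14.5 CPM in non-GC B libraries and at 12.9 to 16.9 (median 15.5) in GC B libraries. The groups overlapped nearly throughout, with a log2 fold change of 0.19 (95% interval -0.08 to 0.45, adjusted p = 0.194, edgeR). In T cells it was at 0.794 to 3.24 CPM (median 2.08) in WT non-TFH and 5.71 to 8.98 (median 6.57) in WT TFH libraries. Every TFH library lay above every non-TFH library, at a log2 difference of 1.76 (SE 0.26, adjusted p = 2.68e-05, edgeR), and at 1.35 in S1PR4-/- mice (SE 0.17, adjusted p = 5.55e-06, edgeR). There the ranges were 4.83 to 8.995 CPM in TFH and 2.43 to 4.04 in non-TFH cells, and 12.8 to 15.4 in GC B and 9.81 to 17.9 in non-GC B cells.

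Bid encodes the BH3-only protein that caspase-8 cleaves to link death receptors to the mitochondrion (chromosome 6, minus strand, 120891930 to 120916853). The 5 WT non-GC B libraries were at 88.2, 87.5, 94.6, 108 and 94.7 CPM and the GC B libraries at 224 to 278 (median 239). The separation was among the clearest of the family, with a log2 fold change of 1.45 (SE 0.08, adjusted p = 1.34e-08, edgeR) and 1.497 in S1PR4-/- mice (SE 0.11, adjusted p = 4.69e-07, edgeR). WT TFH libraries were at 41.8 to 54.6 CPM (median 49.1) and non-TFH libraries at 33.1 to 46.8 (median 36.8), a log2 fold change of 0.37 under the fold threshold (SE 0.09, adjusted p = 0.0016, edgeR). In S1PR4-/- libraries Bid ran from 222 to 303 CPM in GC B, 91.0 to 104 in non-GC B, 45.4 to 54.2 in TFH and 36.5 to 51.5 in non-TFH cells. Exons of Bid overlap those of Bcl2l13 on the other strand, a gene with a median of 2348 expected counts. The kit kept strand, but whether the counting used it is not given in the sources used here.

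Bax and Bak1 encode the pore formers. Bax (chromosome 7, minus strand, 45461697 to 45466898) was the steadiest member, with WT means between 100.3 CPM in non-GC B and 123 in TFH cells, a range of 1.22 times in which all neighbours overlapped. Its log2 fold change was 0.10 in GC B cells (95% interval -0.07 to 0.27) and 0.19 in TFH cells (95% interval 0.02 to 0.35) of WT mice. Bak1 (chromosome 17, minus strand, 27019810 to 27029009) was the lowest member in every group, at 11 to 80 expected counts per library. It was at 0.509, 0.656, 0.473, 0.755 and 0.853 CPM in WT non-GC B libraries and 1.12 to 2.42 (median 1.22) in WT GC B libraries, which did not overlap, with a log2 fold change of 1.19 (SE 0.32, adjusted p = 0.00474, edgeR). WT TFH libraries (0.750 to 1.67 CPM) overlapped non-TFH libraries (0.2998 to 0.797 CPM), with a log2 fold change of 1.01 (SE 0.30, adjusted p = 0.0072, edgeR). In S1PR4-/- T cells it was 0.44 (95% interval -0.14 to 1.03, adjusted p = 0.161, edgeR). Exons of Bak1 overlap those of Ggnbp1 on the other strand, at a median of 14.8 and at most 29 expected counts.

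Whether the germinal center difference itself was unlike in B and T cells was tested by an interaction term, a comparison added after the single comparisons had been seen. In WT mice 6 of the 10 genes passed an FDR of 0.05, against 41.7% of all genes tested. The difference was larger on the positive side in B cells for Bbc3 (2.98, SE 0.34), Bcl2l11 (2.37, SE 0.22), Bcl2l1 (1.25, SE 0.18) and Bid (1.01, SE 0.12), and larger in T cells for Bcl2a1b (-1.73, SE 0.17) and Pmaip1 (-1.64, SE 0.30), all as log2 values from edgeR. In S1PR4-/- mice the same 6 genes and Mcl1 (0.39, SE 0.11) passed, against 40.8%. For Bcl2 the term was -0.44 in WT (95% interval -1.13 to 0.25, adjusted p = 0.315, edgeR) and -0.04 in S1PR4-/- mice (-0.53 to 0.46, adjusted p = 0.948). Without replicate 6 of the WT GC B cells, the library with 58.9 CPM, the WT term for Bcl2 was -0.74 (adjusted p = 0.0257, edgeR).

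Set directly beside WT TFH cells, WT GC B cells differed in 7 of the 10 genes, 4 higher and 3 lower, with 44.3% of all genes called, 20.1% higher and 24.2% lower. Bid (2.34, SE 0.08), Bcl2l11 (2.24, SE 0.16), Pmaip1 (1.12, SE 0.13) and Mcl1 (0.72, SE 0.09) were higher, and Bcl2a1b (-0.99, SE 0.12), Bcl2 (-0.81, SE 0.29) and Bbc3 (-0.74, SE 0.18) were lower. Between WT non-GC B and non-TFH cells 6 genes differed, 4 higher and 2 lower in the B cells, against 38.9% of all genes, 19.7% higher and 19.1% lower. Pmaip1 (2.82, SE 0.28), Bid (1.39, SE 0.09), Mcl1 (0.86, SE 0.13) and Bcl2a1b (0.80, SE 0.12) were higher in the B cells, and Bbc3 (-3.67, SE 0.30) and Bcl2l1 (-1.62, SE 0.15) were lower. Pmaip1, Bid and Mcl1 were thus higher, and Bbc3 lower, in B than in T cells in both comparisons.

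The loss of S1PR4 was compared within each population. No member was called in any of the 4 comparisons by edgeR, by DESeq2 or by limma-voom at the same thresholds. Over all genes, edgeR called 0.0612% in GC B, 0.0537% in non-GC B, 0.496% in TFH and 0.114% in non-TFH cells. At an unadjusted p under 0.05, edgeR gave 1 member in GC B, 1 in non-GC B, 3 in TFH and 3 in non-TFH cells, DESeq2 gave 1, 2, 3 and 4, and limma-voom gave 0, 1, 3 and 3. The backgrounds at that unadjusted level with edgeR were 4.13%, 4.55%, 19.2% and 11.3%. Those of DESeq2 and limma-voom are not given here.

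**Figure D4:**
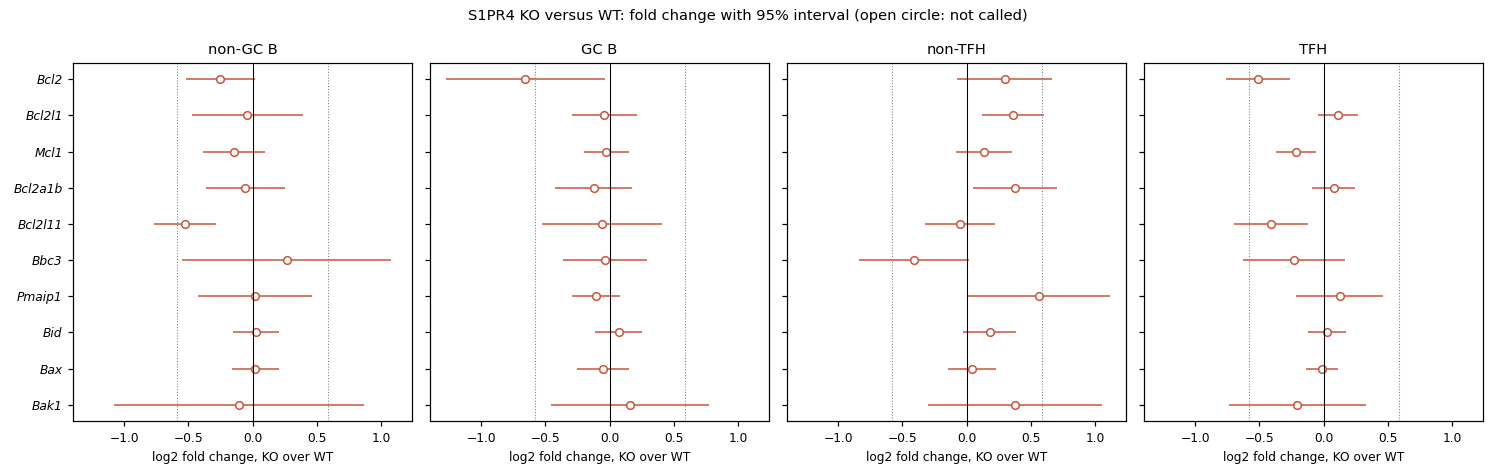
Log2 fold change of S1PR4-/- over WT (x axis) for the 10 genes in each population, with 95% intervals, open circles for genes not called and dotted lines at a fold of 1.5. Bcl2 lies left of 0 in TFH (-0.51) and GC B cells (-0.66) and right of it in non-TFH cells (0.30), and the intervals of Bax and Bid stay within the dotted lines in all 4 panels.

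In TFH cells Bcl2 was at 45.9, 65.9, 66.4, 52.5, 48.4 and 41.6 CPM in WT and at 34.0, 44.8, 39.6, 35.5, 34.9 and 37.5 in S1PR4-/- libraries. The ranges met only at the top S1PR4-/- library, and the log2 fold change was -0.51 (SE 0.12, adjusted p = 0.0496, edgeR), under the FDR threshold but short of the fold threshold. At an FDR under 0.05 alone, a rule added after this value was seen, Bcl2 was the 1 member counted by edgeR, where 1.41% of all genes were. DESeq2 counted 2 (Bcl2 and Bcl2l11) and limma-voom 0, and the shares over all genes with these tools are not given here. The summed B cell markers were at 444 to 508 CPM in WT TFH replicates 1 to 3 and at 179 to 251 CPM in WT replicates 4 to 6. In the S1PR4-/- TFH libraries they were at 162 to 306 CPM, a range that holds those of WT replicates 4 to 6. The plasma cell marker sums did not overlap, at 252 to 624 CPM in WT and 206 to 242 CPM in S1PR4-/- TFH libraries, and their part in the difference was not tested. Xist was at 21.7 to 28.1 CPM in the WT TFH libraries except replicate 3, which was at 0. Among S1PR4-/- TFH libraries it was at 23.7 and 23.3 CPM in replicates 4 and 5 and at 0 to 0.033 in the others. By this marker, sex was not balanced between the genotypes. With the B cell marker score as a covariate, the log2 fold change of Bcl2 was -0.33 (adjusted p = 0.439, edgeR). With Xist as a covariate for sex it was -0.63 (adjusted p = 0.0193, edgeR), past both thresholds. Leaving out 1 library at a time gave adjusted p-values from 0.0227 to 0.110, under 0.05 in 3 of 12 fits. The myeloid markers of S1PR4-/- replicate 6, at 449 CPM against 25.5 to 96.3 in the other TFH libraries, stood apart, and without it the value was -0.51 (adjusted p = 0.0842, edgeR).

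In non-TFH cells Bcl2 was 0.30 higher in S1PR4-/- libraries (95% interval -0.07 to 0.66, adjusted p = 0.57, edgeR). Xist was unbalanced here too, at 6.79 to 18.9 CPM in the WT libraries except replicate 3, which was at 0. In S1PR4-/- libraries it was at 14.5 and 13.2 CPM in replicates 4 and 5 and at 0 to 0.29 in the others. With Xist as a covariate the log2 fold change of Bcl2 was 0.46 (adjusted p = 0.483, edgeR). The interaction of genotype with population was -0.80 for Bcl2 (95% interval -1.26 to -0.34, adjusted p = 0.221, edgeR), and no member passed among the 0.0139% of genes that did, with 2 of the 10 at an unadjusted p under 0.05 (Bcl2 and Mcl1), where 9.2% of all genes were. DESeq2 and limma-voom likewise gave 0 members at an FDR under 0.05 and 2 at an unadjusted p under 0.05. The shares over all genes with these 2 tools are not given here. Over the alternatives that kept all libraries, 1 to 76 of all genes passed the FDR for this term. In B cells, the same term gave 0 members at either level in edgeR, DESeq2 and limma-voom. With edgeR, 0% of all genes were under the FDR and 4.58% under the unadjusted level.

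In GC B cells Bcl2 was at 32.3, 12.2, 21.9, 22.8, 33.2 and 58.9 CPM in WT and at 15.7, 22.8, 19.6, 23.1, 17.9 and 15.6 in S1PR4-/- libraries. The WT range enclosed the S1PR4-/- range, and the log2 fold change was -0.66 (95% interval -1.28 to -0.04, adjusted p = 0.985, edgeR). Without WT replicate 6 it was -0.35 (adjusted p = 1.00, edgeR), and with the plasma cell marker score as a covariate, added after the marker sums were seen, it was -0.66 (adjusted p = 0.771, edgeR). The intervals of Bax, Mcl1 and Bid in GC B cells lay within -0.26 and 0.25.

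In non-GC B cells Bcl2l11 had the smallest unadjusted p of the members. All 4 S1PR4-/- libraries (21.04 to 24.9 CPM) were below all 5 WT libraries (29.8 to 40.4 CPM), with a log2 fold change of -0.52 (SE 0.11, adjusted p = 0.526, edgeR). Groups without overlap made up 1.75% of all genes in this comparison. DESeq2 gave an adjusted p of 0.0133 at a log2 fold change of -0.53, and limma-voom gave 0.722. In TFH cells Bcl2l11 was at -0.41 (SE 0.13, adjusted p = 0.115 in edgeR, 0.0496 in DESeq2 and 0.123 in limma-voom), and in non-TFH cells it was at -0.05 (95% interval -0.32 to 0.22).

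In non-TFH cells the 3 members under an unadjusted p of 0.05 were Bcl2l1 (0.36, SE 0.11, adjusted p = 0.219, edgeR), Bcl2a1b (0.38, SE 0.15, adjusted p = 0.362, edgeR) and Pmaip1 (0.56, SE 0.26, adjusted p = 0.439, edgeR), each at a higher mean in S1PR4-/- mice with overlapping libraries. The intervals of Bbc3, Pmaip1 and Bak1 were wide in several populations, reaching from -1.08 to 0.87 for Bak1 in non-GC B cells, an interval that includes changes of 1.5 times in both directions.

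Other genes of the pathway were taken from 3 lists. Of 16 further BCL2 family genes 10 were tested in WT B cells and 6 called, 4 higher and 2 lower, with a median log2 fold change of 0.20 over the 10, where 47.8% of all genes were called, 24.8% higher and 23.1% lower. Bcl2a1a (3.05, SE 0.61), Bcl2l14 (2.48, SE 0.53) and Bad (1.49, SE 0.16), the gene of a BH3-only protein controlled by phosphorylation, were higher, and the mitophagy receptors Bnip3l (-0.94, SE 0.11) and Bnip3 (-0.88, SE 0.17) were lower. In WT TFH cells 5 of 10 were called, all higher, with a median of 0.63, where 43.2% of all genes were called and 22.8% were higher. They were led by Bcl2a1d (3.61, SE 0.21), Bcl2a1a (2.48, SE 0.60) and Bnip3 (1.06, SE 0.20). Bnip3 was thus lower in GC B and higher in TFH cells than in their counterparts. Bcl2a1d and Bcl2a1a share 89.1% and 79.6% of their 31-base stretches with other copies. Their calls are therefore not separate from that of Bcl2a1b. Bcl2a1a was also near the floor, with WT means of 0.83 CPM in TFH, 0.15 in non-TFH, 1.62 in GC B and 0.20 in non-GC B cells.

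Of the 18 caspase, apoptosome and inhibitor genes, 9 were called in WT GC B cells, 6 higher and 3 lower, and 8 in WT TFH cells, 5 higher and 3 lower, with medians of -0.06 and -0.05. These counts were near the shares of all genes called, 47.8% and 43.2%. Birc5, which encodes survivin and is known as a gene of dividing cells, was higher in both (7.32, SE 0.34, and 4.13, SE 0.34). Cycs (1.22, SE 0.10), the gene of cytochrome c, was among the leading genes in GC B cells. Birc2, Birc3 and Cflar, which encode the inhibitors cIAP1, cIAP2 and c-FLIP, were lower in both, at -0.65 (SE 0.10), -1.25 (SE 0.12) and -0.90 (SE 0.09) in GC B cells and -0.91 (SE 0.09), -0.65 (SE 0.11) and -0.85 (SE 0.10) in TFH cells.

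Of the 14 genes known to regulate the family, 4 were called in WT GC B cells and 8 in WT TFH cells, with medians of -0.06 and -0.02, where 47.8% and 43.2% of all genes were called. Bcl6, the repressor that defines both populations and represses Bcl2, was higher in GC B (0.64, SE 0.18) and TFH cells (1.74, SE 0.10). Foxo3 was lower in both (-1.89, SE 0.16, and -0.81, SE 0.18). In GC B cells Fbxw7 (0.95, SE 0.11), part of a ligase that degrades MCL1, was higher and Rel (-1.23, SE 0.13), an NF-kB subunit, was lower. In TFH cells Trib1 (2.43, SE 0.15) and Nfkb1 (0.75, SE 0.08) were higher, and Il7r (-4.60, SE 0.24), the receptor whose signal sustains Bcl2 in T cells, and Foxo1 (-1.09, SE 0.06) were lower. None of the tested genes of these 3 lists was called between genotypes in any population by edgeR. At an unadjusted p under 0.05 there were 0 to 1 genes of a list in GC B and in non-GC B cells, against 4.13% and 4.55% of all genes. The lists gave 2 to 6 genes in TFH cells, the 6 being of 14 regulators, against 19.2% of all genes, and 1 to 4 in non-TFH cells, against 11.3%.

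Across the 45 libraries, which share their 4 populations, the gene whose log2 CPM was most like that of Bid was Rassf6 (Pearson r = 0.98 over 45 libraries, out of 16200 genes). For Bcl2a1b it was its own copy Bcl2a1d (0.98), for Bcl2 it was B4galnt1 (0.97), for Bcl2l1 Adk (0.97), for Bbc3 Meis3 (0.96) and for Pmaip1 Ccdc50 (0.96). Bcl2l11 was most like Tgfbr1 (0.91) and Mcl1 most like Etnk1 (0.94). Bax (Hsbp1, 0.84) and Bak1 (Gm10175, 0.84) had no close partner. These values describe differences between 4 populations and carry no test.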

How the data were processed

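The authors deposited 1 table of expected counts (RSEM 1.3.0, 8.83% of values not whole), which carry no scaling. Per the submitters' processing notes, cutadapt 2.10, STAR 2.5.3 with mm10, Picard and DESeq2 were also used. The libraries were made with a stranded total RNA kit with ribosomal depletion, although the methods also describe mRNA capture on oligo-dT beads. They name standard and low RNA inputs, which were not considered here. The methods name GENCODE M30, whereas the 55450 rows equal the number of genes in M21 and 55423 symbols match it, so coordinates and exon lengths are from M21. The table also listed 111 repeated symbols, which were kept apart. Members and gene lists were chosen with earlier results of these data known.

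Expected counts were rounded, filtered with filterByExpr, scaled by TMM and compared for each pair of groups by edgeR's quasi-likelihood test (edgeR 4.0.16, R 4.3.3), adjusted by Benjamini-Hochberg over all genes tested. The study's methods name DESeq2. DESeq2 1.42.0 and limma 3.58.1 (voom) were alternatives, beside other scaling, no filter, all groups in 1 fit, a replicate block, summed Bcl2a1 copies, covariates and leaving out each library. SEs were derived from the F statistic. CPM used 1 TMM scaling over all 45 libraries. Some of the fits were tested on simulated data in which 200 genes were changed by a fold of 2. Between 58% and 78.5% of these genes were recovered, and 1.26% to 6.45% of the calls were of unchanged genes. The real WT comparisons of GC B and TFH cells with their counterparts called 47.8% and 43.2% of all genes, far more than were simulated. These rates may therefore not hold for them. Per the methods, cells were sorted from 6 WT and 6 S1PR4-/- mice, the number of libraries in most groups. Which library came from which mouse, and whether equal replicate numbers mean 1 mouse, is not given in the sources used here. The text names the 10 members, up to 3 called genes per direction of each list by size of change, and 1 most similar gene per member; some list genes that this rule names are not reported here. All libraries of a group differed beyond counting noise, and none was left out.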

Additional observations from a re-analysis of the deposited data

Results flagged for a closer look

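Of the 80 sets of values made by 10 genes in 8 groups, 4 held a library set apart from the rest by Dixon's criterion, which chance meets in about 1 of 20. Bak1 was at 2.42 CPM in WT GC B replicate 3, with the next library at 1.36. Bbc3 was at 11.3 CPM in WT TFH replicate 1 (next 7.75) and at 35.7 in WT non-TFH replicate 4 (next 21.4). Bid was at 46.8 CPM in WT non-TFH replicate 6 (next 38.1).

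The germinal center difference was unlike in B and T cells, by a test of the interaction in edgeR, for several members. In WT mice the log2 terms were 2.98 for Bbc3 (adjusted p = 2.55e-07), 2.37 for Bcl2l11 (adjusted p = 1.40e-08), -1.73 for Bcl2a1b (adjusted p = 4.15e-08), -1.64 for Pmaip1 (adjusted p = 0.000107), 1.25 for Bcl2l1 (adjusted p = 4.29e-06) and 1.01 for Bid (adjusted p = 3.26e-07). In S1PR4-/- mice they were 3.20 for Bcl2l11 (adjusted p = 4.30e-09), 2.51 for Bbc3 (adjusted p = 1.98e-07), 1.52 for Bcl2l1 (adjusted p = 8.96e-07), -1.49 for Bcl2a1b (adjusted p = 1.65e-05), -1.31 for Pmaip1 (adjusted p = 0.000175), 1.22 for Bid (adjusted p = 1.78e-07) and 0.39 for Mcl1 (adjusted p = 0.00557). B cells were taken on day 9 and T cells on day 6, and day and lineage cannot be told apart.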

How the results depend on the processing

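Over 3010 recomputed member values, 0 calls were lost, 5 were gained, 0 called values changed direction and 81 values that were called in neither fit changed sign. With Xist as a covariate, 1 member (Bcl2, -0.63) was called between genotypes in TFH cells, against 0 otherwise. Every other alternative that keeps all libraries gave the stated count of members in each comparison. Without 1 library the counts ranged from 6 to 7 for the B against T cell term in WT (Bcl2 gained without WT GC B replicate 6) and from 7 to 8 in S1PR4-/- mice (Bak1 gained without S1PR4-/- GC B replicate 5, non-GC B replicate 4 or non-TFH replicate 2, at 1.15, 1.20 and 1.13). Over all genes, the 67 calls between genotypes in TFH cells ranged from 11 to 184 over the alternatives and from 15 to 117 without 1 library. The plasma cell covariate, the B against T cell terms and the rule without a fold threshold were chosen after seeing the data.

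The sources do not say that equal replicate numbers mark 1 mouse, and the numbers were not taken as pairs, since correlations of deviations were over 0.1 in 3 of 6 S1PR4-/- T cell, 2 of 6 WT T cell, 1 of 5 WT B cell and 0 of 4 S1PR4-/- B cell pairs. As a hint of pairing from the data, 6 of 6, 4 of 6, 4 of 5 and 0 of 4 correlated best with their own number, and same-numbered libraries were on the same side of 1 CPM of Xist in 12 of 12 T cell and 5 of 9 B cell pairs. With the number as a block, counts of members were as stated in each comparison (7, 7, 6, 6, 7 and 6 between populations, 0 in each genotype comparison and interaction, 6 and 7 for the B against T cell terms). In comparisons that hold both genotypes, this block joins WT and S1PR4-/- libraries of the same number, which are from different mice. Sign changes under the block were Bax in S1PR4-/- GC B against non-GC B cells (-0.034) and in WT non-GC B against non-TFH cells (0.011), Bak1 (0.00027) and Pmaip1 (-0.0010) between genotypes in non-GC B cells, and Bcl2l1 for genotype by population in B cells (0.035). With genotype and number together as the block, the last term was 0.033 for Bcl2, 0.090 for Bcl2l1 and -0.047 for Bid. For genotype by population in T cells, no member changed sign or call under that block.

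Other sign changes were Bax in S1PR4-/- GC B against non-GC B cells with all 8 groups in 1 fit (-0.034), and between genotypes Pmaip1 in non-GC B cells with limma-voom (-0.023), Bcl2l1 in GC B cells with the plasma cell score (0.015), and in TFH cells Bcl2a1b with Xist (-0.039) and Bax (0.028), Bbc3 (0.068) and Pmaip1 (-0.15) with the B cell score. For genotype by population in B cells Bcl2l1 was 0.00099 with DESeq2 and 0.031 with limma-voom. The cause was not tested.

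Leaving out 1 library moved these uncalled values across 0. In S1PR4-/- GC B against non-GC B cells Bax ran from -0.049 to 0.10 and Pmaip1 from -0.072 to 0.18, and in WT non-GC B against non-TFH cells Bax ran from -0.091 to 0.0074. Between genotypes, GC B cells gave Bbc3 -0.097 to 0.038, Bcl2l1 -0.10 to 0.026 and Bcl2l11 -0.21 to 0.019. Non-GC B cells gave Bak1 -0.29 to 0.035, Bax -0.051 to 0.067, Bbc3 -0.019 to 0.39, Bcl2a1b -0.14 to 0.073, Bcl2l1 -0.23 to 0.036, Bid -0.017 to 0.073 and Pmaip1 -0.12 to 0.16. TFH cells gave Bax -0.042 to 0.031 and Bid -0.017 to 0.056, and non-TFH cells gave Bax -0.00070 to 0.093 and Bcl2l11 -0.15 to 0.0038. Genotype by population in B cells gave Bax -0.13 to 0.0091, Bcl2a1b -0.19 to 0.024, Bcl2l1 -0.075 to 0.19 and Pmaip1 -0.25 to 0.025, and in T cells Bax -0.10 to 0.00014 and Bbc3 -0.067 to 0.34. The B against T cell term gave Bcl2 -0.12 to 0.12 in S1PR4-/- and Bak1 -0.10 to 0.31 in WT mice. Bak1 was the lowest member in every group, at 11 to 80 expected counts per library, and the part of depth in these changes was not tested.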
